A study of Homo sapiens with 5 samples.

Results

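The cytosolic ribosome is built from ribosomal RNA and a fixed set of ribosomal proteins, which enter its small subunit (RPS genes) or its large subunit (RPL genes) in about 1 copy each. The messages of these genes are among the most abundant of any growing cell, and most begin with a run of C and T bases, the terminal oligopyrimidine (TOP) motif, through which the growth-sensing kinase mTORC1 can switch their translation on or off together. In the developing brain, dividing progenitors are known for high ribosome production. The genes were chosen by symbol alone (RPS or RPL with a number and at most 1 letter A or X, RPLP0 to RPLP2, and RPSA). The rule found 77 genes among the 32732 human genes listed for all 5 libraries, 31 of the small subunit and 46 of the large subunit, and no gene of the rule was missing from either annotation. FAU and RACK1, whose products also sit on the ribosome, fall outside the symbol rule and are given apart.

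Single-cell RNA was read from human brain organoids grown from H9: AAVS-ChR2-EYFP, an established human embryonic stem cell line that carries the light-gated channel ChR2 with EYFP. D0 held organoids at day 42 of culture. The other libraries held cells of such organoids 2 or 4 months post transplantation (2MPT, 4MPT) into the prefrontal cortex (PFC) or hippocampus (HIP) of immunodeficient SCID mice, with 1 library each for HIP_2MPT, PFC_2MPT, HIP_4MPT and PFC_4MPT. Organoids and mice were pooled in a library, so the HIP and PFC libraries of a stage served as its 2 replicates, and p-values measure only the spread between these libraries. With 2 libraries against 2, an exact permutation test of a single value cannot go below p = 0.333 (two-sided), and D0 has no replicate.

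The files counted unique molecular identifiers (UMIs, tags that mark each captured RNA molecule once) per gene and cell. After the quality filters 4885 human cells remained in D0 and 5952 to 8363 in each graft library, with a median of 9847 UMIs per cell in D0 and 1253 to 2759 in grafts. Any pair of libraries shared 6 to 20 cell barcodes, at most 0.289% of the smaller library. PFC_4MPT stood apart by its mitochondrial RNA, with a median share of 7.31% per cell against 2.35 to 3.77% in the other libraries. D0 differed from grafts also in the enzyme used to free the cells (TrypLE against Trypsin-EDTA), in the Cell Ranger release and in the gene annotation, and these cannot be told apart from transplantation. Markers of the labelled tissue were present in every library: summed over 8 neuron markers the level was 2216 to 6776 CPM (UMI counts of a gene scaled to one common library total), and over 7 radial glia markers 647 to 5224 CPM.

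To show what these messages share at their first base, the starts of 8 members are printed here, with 10 bases before and 20 from the canonical start of the GENCODE annotation on GRCh38. Capitals mark a pyrimidine run of at least 5 bases that opens with C within 5 bases of that start, and a window with no capitals holds none by this rule.
RPS2 (chr16:1964807-1964836, minus strand): aggtctcgttCTTCTTTTCCgacaaaacac
RPL13A (chr19:49487598-49487627, plus strand): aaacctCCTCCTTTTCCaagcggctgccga
RPS16 (chr19:39435930-39435959, minus strand): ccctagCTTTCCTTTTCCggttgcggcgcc
RPS21 (chr20:62387093-62387122, plus strand): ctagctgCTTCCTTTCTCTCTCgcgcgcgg
RPL36A (chrX:101391001-101391030, plus strand): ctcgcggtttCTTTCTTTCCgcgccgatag
RPL15 (chr3:23917122-23917151, plus strand): aaggcattgtgggagtacagctctttcctt
RPL17 (chr18:49492446-49492475, minus strand): ttccctaagcagcctgaggtgagtgtttct
RPS26 (chr12:56041908-56041937, plus strand): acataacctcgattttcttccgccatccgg
Such a run was found at 66 of 77 members (85.7%) and at 21.9% of the canonical starts of 20046 protein-coding genes, and a run of at least 8 bases at 57 members (74%) and at 5.86% of all. The printed starts include members far below D0 in grafts (RPS2, RPL13A, RPS16, RPL15) and members above it (RPS21, RPL36A, RPL17, RPS26), and both sets hold starts with and without a run. Across the 77 members the length of the run had a Spearman correlation of -0.03 with the change from D0 to 2MPT. The window covers 1 annotated start per gene, so a start used elsewhere is not seen.

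Ribosomal protein genes gave a larger share of UMIs in organoids before transplantation than in grafts. The 77 genes made up 25.5% of UMIs in D0, 16.5% in both grafts at 2MPT, and 18% (HIP) and 19.5% (PFC) in those at 4MPT. The mean of the 4 grafts was 17.6% ± 1.45 (SD, n = 4). All 4 grafts lay below D0, and both 4MPT libraries lay above both 2MPT libraries. Binomial 95% intervals (exact, counting error only) were narrow, as in D0 with 25.53 to 25.55%, so the spread between libraries and not the number of UMIs limits these values. In bulk sums of this kind, more cells of a type and more of its RNA per cell cannot be told apart.

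Depth per cell moved with this difference. Among cells with 2000 to 4000 UMIs, which were 368 cells in D0, the share was 21.2% in D0, 15.1 and 16.8% in HIP and PFC at 2MPT, and 18.4 and 21% in HIP and PFC at 4MPT. At this matched depth D0 and PFC_4MPT were close and the 2MPT libraries stayed lowest. In neuron-like cells of that depth PFC_4MPT had the higher share, 20.6% against 18.3% in D0. The part of depth in the result was not tested further. Choroid plexus cells moved with D0 too: 6 marker genes summed to 6155 CPM in D0 and 3.24 to 7.32 CPM in grafts, and these cells, 811 in D0, gave 23.4% of their UMIs to members, below the D0 total. Markers of microglia, endothelium and red blood cells summed to at most 17.8 CPM in any library.

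Both subunits were lower in grafts. The large-subunit genes gave 1.39 times the UMIs of the small-subunit genes in D0 and 1.43 to 1.45 times in grafts. From D0 to 2MPT the median log2 fold change was -0.99 for the 31 small-subunit genes and -0.98 for the 46 large-subunit genes, and from D0 to 4MPT it was -0.68 for both.

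**Figure D1:**
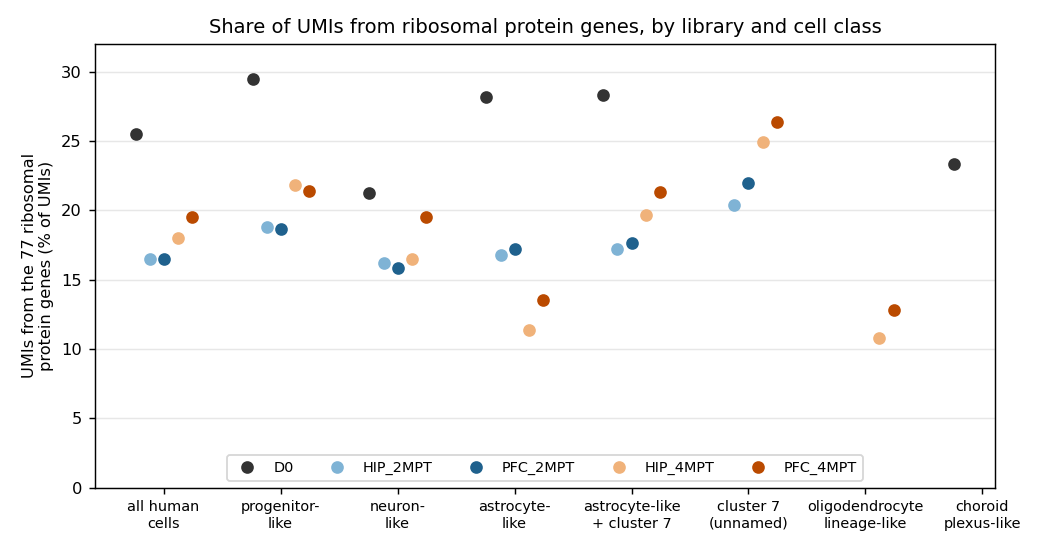
Share of UMIs from the 77 ribosomal protein genes (y axis, % of UMIs) by cell class (x axis), with 1 point per library and colour for the library; points with fewer than 20 cells are left out. D0 is highest in each class it is shown in, at 25.5% over all human cells, and in astrocyte-like cells the 4MPT libraries (11.4% and 13.6%) lie below the 2MPT libraries until cluster 7 is added to the class.

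Tested gene by gene in edgeR's quasi-likelihood fit over all genes with Benjamini-Hochberg adjustment, 49 members were lower and 2 higher at 2MPT than in D0, out of 77, where 21.1% of the 19074 genes tested were lower and 27.2% higher. At 4MPT 35 members were lower and 2 higher, where 21.4% of all genes were lower and 28.7% higher. The median log2 fold change of the members was -0.99 at 2MPT and -0.68 at 4MPT, beside 0.07 and 0.08 over all genes tested. The fits at 2MPT and 4MPT share D0, so they are not separate evidence. Leaving out 1 graft library gave medians of -1.01 to -0.91 at 2MPT and -0.76 to -0.58 at 4MPT. The number of members called lower at 2MPT then moved both down and up, and the number called higher moved at both stages. Scaling by total UMIs moved the median of all genes to 0.44 and 0.40. Relative to the median of all genes the members stood at -1.06 at 2MPT and -0.76 at 4MPT under either scaling. A change of scaling moves all genes by nearly the same amount, so this agreement was fixed in advance and is no check. The median of the members themselves moved to -0.62 at 2MPT and -0.37 at 4MPT under total UMIs. Total UMIs gave 36 members lower and 4 higher at 2MPT, where 2487 of the 19074 genes were lower and 6352 higher. At 4MPT it gave 33 and 4 members, where 2655 genes were lower and 6344 higher. The share of higher calls among all called genes rose from 56.2% to 71.9% at 2MPT and from 57.2% to 70.5% at 4MPT under this scaling.

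The 5 members with the largest fall at both stages were RPS20, RPL13A, RPL7, RPS2 and RPL27A. RPL13A, a large-subunit protein also known from a translational silencing complex, had 3878 CPM in D0, 985 and 874 CPM in the HIP and PFC grafts at 2MPT, and 905 and 838 CPM in those at 4MPT. D0 lay far above every graft, and the grafts lay close together. Its log2 fold change was -2.43 ± 0.28 (SE) at 2MPT and -2.47 ± 0.28 at 4MPT, with adjusted p of 7.73e-05 and 6.83e-05 (edgeR).

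RPS2, a protein near the entrance of the mRNA channel, had 5290 CPM in D0, 1337 and 1493 CPM in the HIP and PFC grafts at 2MPT, and 1543 and 1568 CPM in those at 4MPT. It was among the most abundant messages of D0 and gave 2.07% of all member UMIs there, but 0.803 to 0.905% in each graft. The fall was -2.27 ± 0.29 at 2MPT and -2.08 ± 0.29 at 4MPT (edgeR adjusted p = 0.000136 and 0.000224).

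RPL7, a large-subunit protein, had 2643 CPM in D0 and 622 to 726 CPM in grafts, with log2 fold changes of -2.33 and -2.29. RPS20 had 1388 CPM in D0 and 297 to 427 CPM in grafts (-2.47 and -2.24), and RPL27A 2033 CPM in D0 and 453 to 687 CPM in grafts (-2.20 and -2.16). In all 3 the single D0 value lay above all 4 grafts, as it did for 31.2% of 13880 genes with at least 250 UMIs. RPS20 and RPL27A are also 2 of the 4 members whose human UMIs in the same cells changed by over 5% when reads could map to the mouse genome as well: their counts against the dual reference were 0.762 to 0.948 and 0.876 to 0.976 times those against the human reference. The other 2 were RPL23 (0.928 to 0.988) and RPL35 (0.938 to 0.985).

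Next in size at 2MPT, in the same fit, were RPL15 (-2.15), RPS16 (-2.12), RPL3 (-2.10), RPL4 (-2.06) and RPLP0 (-2.01). RPL3 and RPL4 are core large-subunit proteins that bind ribosomal RNA early in assembly, and RPLP0 forms the base of the stalk that recruits translation factors. RPL3 had 4029 CPM in D0 and 1129 to 1319 CPM in grafts, and RPLP0 2690 CPM in D0 and 773 to 1032 CPM in grafts. Here too D0 lay above all 4 grafts, as for 31.2% of genes with at least 250 UMIs.

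The members did not move as 1 block. D0 was above all 4 grafts in CPM for 59 of 77 members (31.2% of 13880 genes with at least 250 UMIs), below all 4 for 7 members (45.2% of genes), and within their range for 11 (23.5%). At the other end from RPL13A, RPL10, a large-subunit protein near the active site, had 5627 CPM in D0 and 5480 to 6897 CPM in grafts. RPL39, one of the smallest large-subunit proteins, had 4486 CPM in D0 and 4453 to 6694 CPM in grafts. For both the D0 value lay inside the graft range, and neither was called in either fit.

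**Figure D2:**
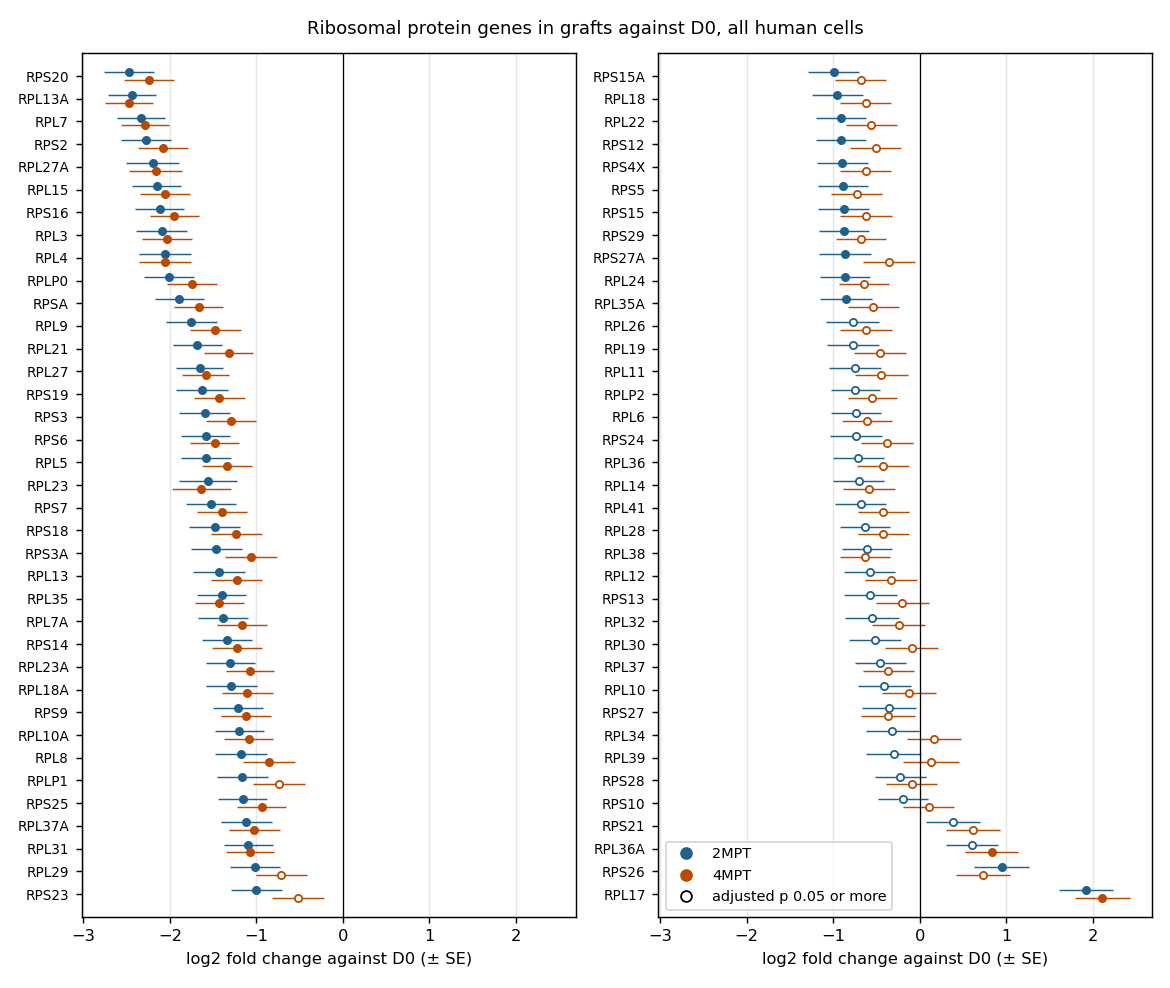
Log2 fold change against D0 (x axis, ± SE) of ribosomal protein genes (y axis, ordered by the change at 2MPT), in all human cells, without a few members not reported here; blue is 2MPT, orange 4MPT, and open points have an adjusted p of 0.05 or more in edgeR. Values run from -2.47 for RPS20 to 1.92 for RPL17 at 2MPT.

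Members below all grafts in D0 included RPL17, RPL36A, RPS26, RPS21, RPS10 and RPS28. RPL17, a protein at the nascent peptide exit tunnel, had 265 CPM in D0, 1320 and 1276 CPM in the HIP and PFC grafts at 2MPT, and 1400 and 1447 CPM in those at 4MPT. It rose by 1.92 ± 0.32 at 2MPT and 2.11 ± 0.32 at 4MPT on the log2 scale (edgeR adjusted p = 0.000698 and 0.000403). RPL17 was the lowest of all members in D0.

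The annotation moved with this result. A read-through gene that joins RPL17 to its neighbour (RPL17-C18orf32) overlaps RPL17 on the same strand and was listed for D0 and not for grafts, and a read that fits 2 overlapping genes is not counted for either. The read-through gene itself held 46 UMIs in D0, and the neighbour C18orf32 moved with RPL17, from 39.8 CPM in D0 to 217 to 269 CPM in grafts. RPL36A, RPS15A and RPL26 were among the other members found to overlap a gene listed for D0 alone, 5 in all by GENCODE position. RPL36A had 860 CPM in D0 and 1647 to 1965 CPM in grafts, with 0.60 ± 0.30 at 2MPT (adjusted p = 0.119) and 0.83 ± 0.30 at 4MPT (adjusted p = 0.0409, edgeR). HNRNPH2, the gene joined to RPL36A in its read-through gene, had 73.5 CPM in D0 and 58.2 to 64.3 CPM in grafts, so it did not move with RPL36A. Without the 5 overlapped members 48 were lower and 1 higher at 2MPT, and 35 and 0 at 4MPT. The part of the annotation in these results was not tested further.

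For RPS26, RPS21 and RPS28 no such overlap was found, and RPS10 had a read-through gene listed for all libraries. Overlaps were sought by GENCODE position, so a gene listed for D0 alone that GENCODE lacks would be missed. RPS26, which sits at the mRNA exit channel, had 373 CPM in D0, 1009 and 854 CPM in the HIP and PFC grafts at 2MPT, and 697 and 843 CPM in those at 4MPT. Its log2 fold change of 0.95 ± 0.31 at 2MPT was called (adjusted p = 0.0286) and the 0.74 ± 0.31 at 4MPT was not (adjusted p = 0.0701, edgeR). RPS21 had 1624 CPM in D0 and 2673 to 3314 CPM in grafts (0.38 and 0.62, not called). RPL34 (0.17), RPL39 (0.13) and RPS10 (0.10) had positive values at 4MPT and negative ones at 2MPT, and none was called. RPS10 had 1362 CPM in D0 and 1509 to 1911 CPM in grafts. RPS28 had 2670 CPM in D0 and 2904 to 3237 CPM in grafts, but log2 fold changes of -0.22 and -0.09 after TMM scaling, so its direction depends on the scaling, as does that of RPS10 at 2MPT (-0.19).

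Members with longer coding sequences lay further below D0. Over the 77 genes the log2 fold change had a Spearman correlation with coding length of -0.495 at 2MPT and -0.473 at 4MPT, given as a description, since all points share the same libraries. The 25 shortest (75 to 396 bases) had a median of -0.73 at 2MPT with 11 lower and 1 higher (21.1% and 27.2% of all genes), and the 25 longest (582 to 1281 bases) a median of -1.46 with 20 lower and 0 higher. In progenitor-like cells alone the medians were -0.84 and -1.39, and in neuron-like cells alone -0.31 and -0.98. With the change at 2MPT, the length of the whole message had a Spearman correlation of -0.238 and the number of exons -0.30. The number of named pseudogenes per member, 1588 in total, had a correlation of -0.0045 with it.

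**Figure D3:**
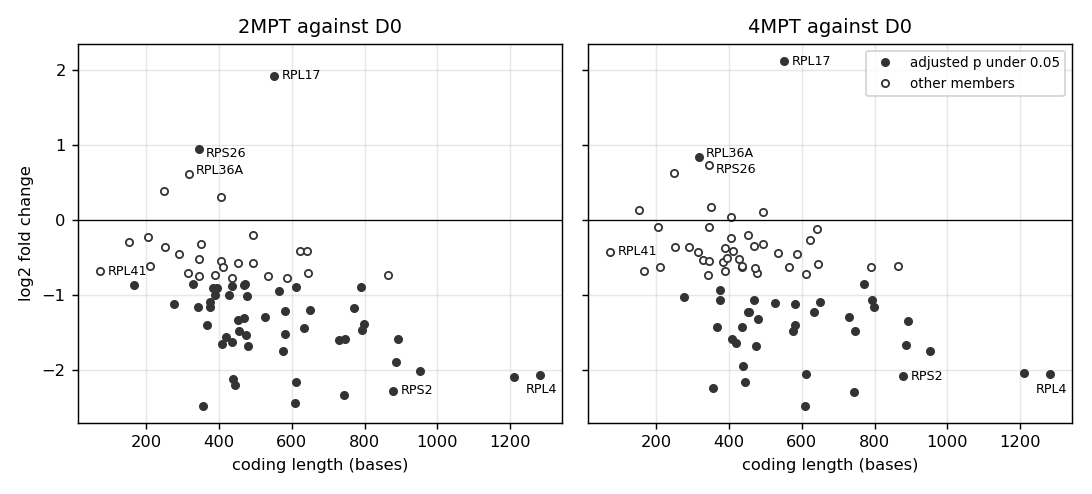
Log2 fold change against D0 (y axis) of each ribosomal protein gene by its coding length in bases (x axis), at 2MPT (left) and 4MPT (right); filled points have an adjusted p under 0.05 in edgeR. Points fall toward the longer genes (Spearman -0.495 and -0.473, n = 77), and RPL17 and RPL36A, which overlap a gene listed for D0 alone, lie above 0.

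Proteins closely tied to the ribosome were read in the same fits. RACK1, a scaffold on the small subunit, fell at both stages (-1.34 at 2MPT and -1.08 at 4MPT, adjusted p = 0.00335 and 0.0102, edgeR), from 2679 CPM in D0 to 1261 to 1580 CPM. NACA and BTF3, which form the nascent-chain complex at the exit tunnel, had -1.01 and -1.07 at 2MPT, both called, and -0.83 (called) and -0.75 (not called) at 4MPT. FAU, which encodes RPS30 fused to a ubiquitin-like protein, was not called, with -0.37 at 2MPT and -0.01 at 4MPT. FAU had 2053 CPM in D0 and 2029 to 2700 CPM in grafts, so D0 lay inside the graft range.

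Of 8 paralogs outside the rule, RPL3L and RPL10L were at or below 0.5 CPM in every library and were not tested. RPS27L, a p53 target, fell at both stages (-1.84 and -1.13). So did RPL39L (-1.09 and -1.23) and RPL7L1 (-0.86 and -1.11), and RPL22L1 fell at 2MPT (-0.94) and was not called at 4MPT (-0.68). RPL36AL (-0.60 and -0.41) and RPL26L1 (-0.23 and -0.39) were not called. The paralog RPL36AL had 438 CPM in D0 and 358 to 445 CPM in grafts, while RPL36A itself was higher in grafts.

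Translation factors and partners with TOP messages were read next. Of 21 such genes 16 were lower and 1 higher at both stages (21.1% and 27.2% of all genes at 2MPT, 21.4% and 28.7% at 4MPT), with medians of -1.61 and -1.46. EEF1A1, the elongation factor that delivers tRNA, had 10231 CPM in D0 and 3898 to 5444 CPM in grafts. The 3 largest falls of each stage were among those of EIF3E, a subunit of initiation factor eIF3 (-2.52 and -2.36), NAP1L1, a histone chaperone (-2.23 and -2.52), EIF4B (-2.13 and -2.19) and EEF2, the translocation factor (-1.95 and -2.37). The 1 higher gene was EEF1G (4.28 and 4.46), from 26.9 CPM in D0 to 667 to 788 CPM in grafts, and it too overlaps a gene listed for D0 alone. EIF4B, among the largest falls, overlaps a gene listed for grafts alone. The part of the annotation in these values was not tested.

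Genes that build ribosomes form a further list. Of 44 ribosome biogenesis genes 12 were lower at 2MPT and 13 at 4MPT, and 0 were higher, with medians of -0.28 and -0.51. They were led by FBL, the methyltransferase of ribosomal RNA (-1.64 and -1.81), NOB1, which trims the small-subunit RNA (-1.47 at both), NOP14 (-1.21 and -1.33) and TCOF1 (-0.92 and -1.61). Of 14 RNA polymerase I genes 4 were lower (TAF1D, -1.19 and -1.31; POLR1D, -1.13 and -1.04; POLR1E, -1.12 and -1.04; TWISTNB, -0.89 and -1.25) and 1 higher (POLR1A, 1.05 and 0.92) at each stage. Over all genes 21.1% were lower and 27.2% higher at 2MPT, and 21.4% and 28.7% at 4MPT.

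Ribosomal proteins of mitochondria, a separate set of nuclear genes, were read for comparison. Of 78 such genes 11 were lower and 9 higher at 2MPT, and 13 lower and 10 higher at 4MPT, with medians of -0.20 and -0.30. Both counts are smaller shares than those over all genes, 21.1% lower and 27.2% higher at 2MPT and 21.4% and 28.7% at 4MPT. MRPL3 (-2.09 and -1.91) and MRPL10 (-1.83 and -1.88) fell most at both stages, followed by MRPL17 (-1.49) at 2MPT and MRPS30 (-1.37) at 4MPT, and MRPS24 (5.12 and 5.00), MRPL38 (3.54 and 3.19) and MRPL23 (2.39 and 2.56) rose most. MRPS24 and MRPL38 each overlap a gene listed for D0 alone, as RPL17 does, and the part of the annotation in their values was not tested. Of mTORC1 and TOP regulators, 20 in all, 6 were lower and 3 higher at 2MPT (21.1% and 27.2% of all genes) and 7 lower and 3 higher at 4MPT (21.4% and 28.7%). DDIT4, a stress-induced inhibitor of mTORC1, fell at both stages (-5.08 and -4.59), as did SESN2 (-2.56 and -2.98), with SESN3 (-1.48) at 2MPT and RPS6KB2 (-1.25) at 4MPT. DEPTOR (1.85 and 2.54), RPTOR (2.17 and 1.96) and SESN1 (1.45 and 1.16) rose.

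The change from D0 was read again within cell classes named from marker genes. Cells were clustered without the 77 members among the variable genes. Progenitor-like (radial glia and cycling cells), neuron-like (intermediate progenitors and neurons) and astrocyte-like classes were formed. Together with choroid plexus-like and oligodendrocyte lineage-like cells they took 18 of 21 clusters. In progenitor-like cells 62 members were lower and 2 higher at 2MPT (15% of 13477 genes lower and 21.5% higher) and 35 lower and 3 higher at 4MPT (16.3% and 22.7%). In neuron-like cells 27 were lower and 3 higher at 2MPT (16.7% of 17537 genes lower and 26.1% higher) and 21 lower and 3 higher at 4MPT (18.6% and 27.8%). The medians were -1.04 and -0.61 in progenitor-like cells and -0.57 and -0.31 in neuron-like cells. These fits were chosen after the data had been seen, and whether the fall differed between the classes was not tested. In D0, 1111 cells of the neuron-like class came from a single cluster (NEUROD6, CALB2) with at most 4 cells of any graft library. Different clusters thus hold this class in D0 and in grafts. The mix of the progenitor-like class differed too. Its radial glia cluster led by PRKCB, VIM and ID3 held 1160 of the 1928 progenitor-like cells of D0. In each graft library it held 110 to 228 cells, a minority of the class. Within that cluster members gave 33.8% of UMIs in D0 and 23.6 to 27.1% in grafts. The part of the mix in the values of either class was not tested.

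RPS2 and RPL13A were far lower in grafts in both classes. RPS2 had 6348 CPM in progenitor-like cells of D0 and 1841 to 2403 CPM in those of grafts, and 3997 CPM in neuron-like cells of D0 and 1167 to 1368 CPM in those of grafts. RPL13A fell in progenitor-like cells (-2.27 at 2MPT and -2.20 at 4MPT) and in neuron-like cells (-2.01 and -2.17). RPL17 was higher in each, from 312 CPM to 1594 to 1778 CPM in progenitor-like cells and from 198 CPM to 1160 to 1376 CPM in neuron-like cells. RPS26 (1.00 in progenitor-like and 1.09 in neuron-like cells at 2MPT) was called in both, RPL36A (0.99 and 1.22) in neuron-like cells at both stages, and RPS21 (1.12) in neuron-like cells at 4MPT. In CPM, D0 lay above all 4 grafts for 59 members and below them for 8 in progenitor-like cells (29.7% and 40.6% of genes with at least 250 UMIs). In neuron-like cells it lay above for 45 and below for 13 (34.2% and 42.6%), and in astrocyte-like cells, with 103 cells in D0, above for 66 and below for 2 (24.6% and 47.6%).

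Within each library, progenitor-like cells gave a larger share of their UMIs to ribosomal protein genes than neuron-like cells did. The share was 29.5% against 21.3% in D0. At 2MPT it was 18.8% against 16.2% in HIP and 18.7% against 15.8% in PFC, and at 4MPT 21.8% against 16.5% in HIP and 21.4% against 19.5% in PFC. Among members, 56 of 77 were higher in progenitor-like cells in all 5 libraries and 0 were lower in all, where 29.5% of 2751 genes with at least 50 UMIs in both classes of each library were higher and 28% lower in all. The median log2 ratio of the members was 0.26, beside 0.03 over those genes. Since the classes come from clusters of the same cells, this is a description with no test. Progenitor-like cells were also deeper, with a median of 11850 against 8998 UMIs per cell in D0. At 2MPT it was 1574 against 1244 in HIP and 3738 against 2279 in PFC. At 4MPT it was 4520 against 2524 in HIP and 3166 against 1780 in PFC. The part of depth in this comparison was not tested. The neuron-like class includes intermediate progenitors, so the comparison is not one of progenitors with neurons alone. Pooled over libraries, its intermediate progenitor clusters (EOMES, PENK, NEUROG1) gave 20 to 24% of UMIs to members. Its other clusters gave 13.3 to 21.6%.

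The members with the largest ratio were RPS6, RPLP0, RPL3, RPL23A and RPL41. RPS6, the small-subunit protein that is phosphorylated by S6 kinase under mTORC1, had 4381 CPM in progenitor-like and 2203 CPM in neuron-like cells of D0. The same pair of values was 2168 and 1368 CPM in HIP and 2203 and 1171 CPM in PFC at 2MPT, and 2220 and 1075 CPM in HIP and 2161 and 1322 CPM in PFC at 4MPT. Its log2 ratio was 0.66 to 1.05 in the 5 libraries, with 1 summed value per class in each library. RPLP0 had ratios of 0.78 to 1.14, RPL3 of 0.50 to 1.00, RPL23A, a protein near the exit tunnel, of 0.48 to 0.96, and RPL41, the shortest ribosomal protein, of 0.37 to 0.81. RPL34 was the member with the lowest median ratio, -0.28, with 0.27 in D0 and -0.39 to -0.23 in grafts, so its order turned between D0 and grafts.

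**Figure D4:**
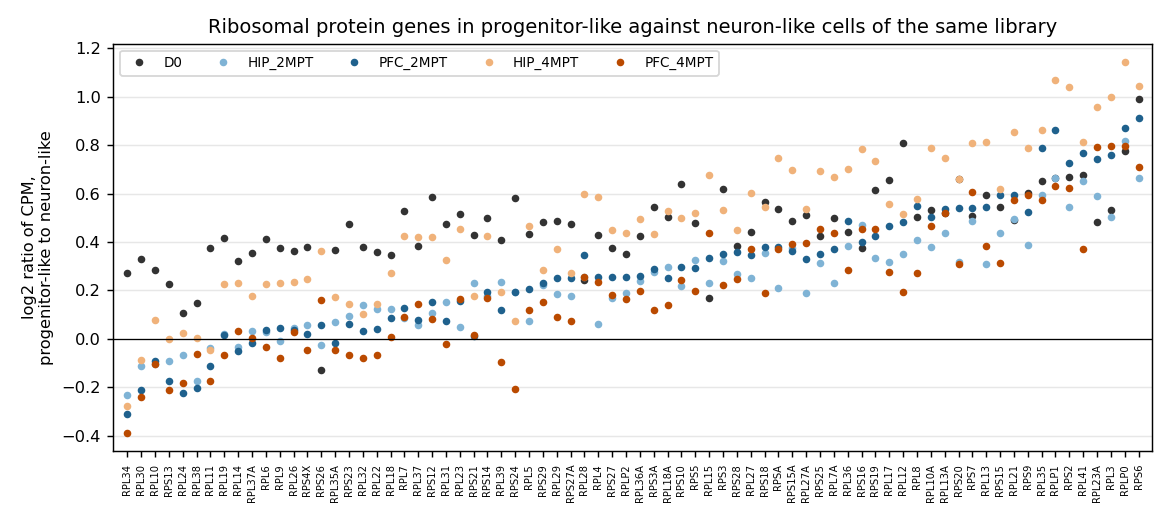
Log2 ratio of CPM in progenitor-like to neuron-like cells of the same library (y axis) for ribosomal protein genes (x axis, ordered by the median over libraries, without a few members not reported here), with 1 point per library. Most points lie above 0, with RPS6 (median 0.91) at the right end and RPL34 (-0.28) at the left.

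Single clusters also differed within a library. The radial glia cluster led by PRKCB, VIM and ID3 gave 33.8% of its UMIs to members in D0, 23.6 and 24.2% in HIP and PFC at 2MPT and 27.1 and 26.2% at 4MPT. A small astrocyte-like cluster led by KIRREL3 and TNC, with 0 cells in D0, gave 10.4 and 8.94% at 2MPT and 7.62 and 9.35% at 4MPT. Oligodendrocyte lineage-like cells (APOD, PCDH15, PDGFRA) gave 10.8% in HIP_4MPT and 12.8% in PFC_4MPT, from 66 and 102 cells. Against neuron-like cells, 3 members were higher in all 5 libraries in astrocyte-like cells (RPL41, RPL3 and RPL15, median log2 ratios 0.60, 0.51 and 0.11) and 1 was lower (RPL24, -0.32), where 26.6% of 1277 genes were higher and 21.3% lower. Against astrocyte-like cells, 53 members were higher in progenitor-like cells in all 5 libraries and 0 lower (24.4% and 26.7% of 1245 genes), led by RPS21 (0.60), RPL21 (0.55), RPL23A (0.53) and RPS16 (0.48).

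From 2MPT to 4MPT no member was called in all human cells, where 1.85% of genes were higher and 0.55% lower. By edgeR 0 members had an unadjusted p under 0.05 (8.39% of genes higher and 5.31% lower). By DESeq2 3 members did, as did 2061 of 19074 genes in either direction, and no member was called after adjustment. The median log2 fold change was 0.22 and 69 of 77 members were above 0, as were 49% of all genes. RPS27A, which encodes a ribosomal protein fused to ubiquitin, had the largest value, 0.51 ± 0.25 (adjusted p = 0.414, edgeR). The 8 members below 0 included RPS26 (-0.21), RPL23 (-0.08), RPL13A (-0.04), RPL35 (-0.03), RPL38 (-0.02) and RPS27 (-0.01).

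Within classes the median change of the members from 2MPT to 4MPT differed in sign, with no member called in any class. All members share the same libraries, so the counts of signs below are a description. In astrocyte-like cells the sign turned (median 0.41) once cluster 7, an unnamed cluster described below, was added to the class. In progenitor-like cells 76 of 77 members were above 0 (49.9% of genes), with a median of 0.34 and 16 at an unadjusted p under 0.05 (3.97% of genes higher and 4.1% lower). Scaling by total UMIs moved that median to 0.19 and the median of all genes in these cells to -0.14. In neuron-like cells 61 were above 0 (50%), with a median of 0.16 and 0 at that level (6.67% of genes higher and 5.38% lower). Different clusters held this class at the stages: an inhibitory neuron cluster (GAD2, DLX5) had 12 and 20 cells in HIP and PFC at 2MPT and 250 and 1108 at 4MPT, and the part of this in the values was not tested. In astrocyte-like cells 77 of 77 were below 0 (49.1%), with a median of -0.42 and 18 at that level (5.25% of genes lower and 7.35% higher). After adjustment 0 members were called in progenitor-like cells (0.624% of genes higher and 0.225% lower), neuron-like cells (0.763% and 0.343%) or astrocyte-like cells (1.31% and 0.437%) by edgeR, and 0 by DESeq2. At an unadjusted p under 0.05 DESeq2 found 7, 3 and 16 members. In either direction 552 of 12019, 1449 of 15734 and 763 of 11431 genes reached that level. As shares of UMIs, astrocyte-like cells had 16.8% in HIP_2MPT and 17.2% in PFC_2MPT but 11.4% in HIP_4MPT and 13.6% in PFC_4MPT. Leaving out 1 graft library, the median log2 fold change of the members in these cells ran from -0.53 without PFC_4MPT to -0.28 without HIP_4MPT.

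The difference between classes was then tested directly, in a fit with the library as a block that was added after the data had been seen. With 2 libraries per stage this fit leaves few residual degrees of freedom, so its adjusted p-values are themselves uncertain. The change from 2MPT to 4MPT was lower in astrocyte-like than in progenitor-like cells for 68 of 77 members and higher for 0, where 1.98% of 12724 genes were lower and 1.47% higher (edgeR). The median difference was -0.77 on the log2 scale, beside -0.02 over all genes. DESeq2 called 49 members lower, where 103 of all 12724 genes were lower. Scaling by total UMIs gave 44 members, where 142 genes were lower. The 9 members not called also had negative values, ranging from -0.61 for RPL13A (adjusted p = 0.0518) and RPS16 (adjusted p = 0.0501) over RPS25, RPL15, RPS20, RPL27 and RPL23 to -0.23 for RPS26.

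RPS2 had the largest difference, -1.17 ± 0.17 (adjusted p = 1.38e-05, edgeR). In astrocyte-like cells it had 1836 and 2133 CPM in HIP and PFC at 2MPT and 985 and 1233 CPM at 4MPT. In progenitor-like cells it had 1841, 2117, 2403 and 2111 CPM in the same order. The astrocyte-like values of the stages did not overlap, and the progenitor-like ones did. RPL36A (-1.13 ± 0.17), RPLP0 (-1.05 ± 0.18), RPL37 (-1.02 ± 0.16) and RPS12 (-0.98 ± 0.16) followed. RPL36A had 1719 and 1531 CPM at 2MPT and 880 and 1066 CPM at 4MPT in astrocyte-like cells of HIP and PFC, against 2027 and 1906, and 2412 and 2286 CPM, in progenitor-like cells. Against neuron-like cells the change was lower in astrocyte-like cells for 14 members (1.56% of 15996 genes lower and 1.28% higher), with a median of -0.59, led by RPS24 (-0.95), RPL36A (-0.91), RPL39 (-0.89), RPS2 (-0.85) and RPL29 (-0.80), but for 0 by DESeq2. Between progenitor-like and neuron-like cells 0 members were called for a difference in their change by edgeR (0.329% of genes higher and 0.898% lower) or DESeq2, and 0 had an unadjusted p under 0.05 by either.

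This difference rests on which cells are called astrocyte-like. Cluster 7, led by OLIG1, SPARCL1 and EGFR, had its highest marker score (mean log2 ratio to all other cells) for astrocyte markers. That score was 2.25, beside 2.35 in the larger astrocyte-like cluster. Among its 10 leading genes cluster 7 had 2 oligodendrocyte lineage markers and 1 astrocyte marker, and so was left unnamed. The naming rule behind this was set after the clusters had been seen. Cluster 7 held 39 and 41 cells at 2MPT and 955 and 708 cells at 4MPT (HIP and PFC), and gave 20.4, 22, 25 and 26.4% of its UMIs to members. Clusters 12 and 17 were also unnamed and left out of the class fits. Cluster 12 held 862 cells of PFC_4MPT and 12 to 36 of each other graft library. Cluster 17 held 227 cells of PFC_2MPT and 23 to 120 of each other graft library. With cluster 7 added to the class, 76 of 77 members were above 0 from 2MPT to 4MPT, with a median of 0.41. Of these 0 were called (1.17% of genes higher and 0.449% lower). The difference from progenitor-like cells then had a median of 0.04 and 0 members called, where 152 of 13243 genes were lower. With the larger astrocyte-like cluster alone the median change was -0.46 with 0 members called (1.31% of genes higher and 0.491% lower). Its change was lower than that of progenitor-like cells for 69 members, where 239 of 12456 genes were lower. Leaving out 1 library leaves a stage with 1 library, and gave median differences between -0.87 and -0.68. The number of members called fell far without either 2MPT library, and the number over all genes fell too. Among cells with 2000 to 4000 UMIs the median was -0.85, with 1 member called, where 9 of 10313 genes were lower.

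**Figure D5:**
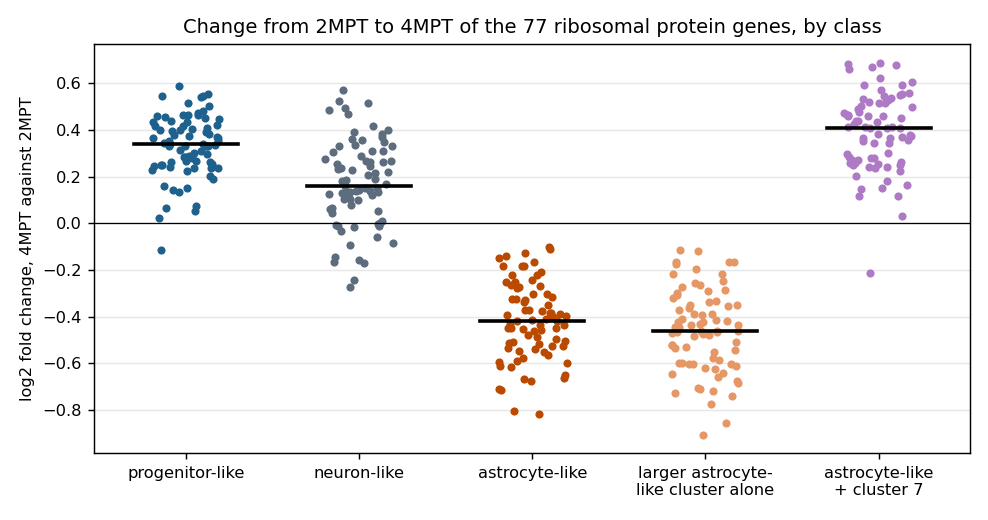
Log2 fold change from 2MPT to 4MPT (y axis) of the 77 ribosomal protein genes (points) in 5 sets of cells (x axis), with the median as a bar. Medians are 0.34 in progenitor-like, 0.16 in neuron-like and -0.42 in astrocyte-like cells, -0.46 in the larger astrocyte-like cluster alone and 0.41 once cluster 7 is added to the class.

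No member was called between PFC and HIP grafts. Over all human cells 0 members were called by edgeR or DESeq2, where 0.0701% of 17121 genes were higher and 0.0175% lower in PFC by edgeR. At an unadjusted p under 0.05 the count was 0 by either tool (1.12% of genes higher and 1.36% lower). The median was 0.10, with 62 of 77 members above 0 (49.4% of genes). RPL39 had the highest value, 0.27 ± 0.37, and RPL23 the lowest, -0.47 ± 0.35. RPL23, RPL27A (-0.39) and RPS20 (-0.32) were also 3 of the 4 members whose UMIs changed by over 5% against the dual reference. In neuron-like cells 0 members were called (0.089% of genes higher and 0.0445% lower), with a median of 0.16. The same was found in astrocyte-like cells (0.131% and 0.122%, median 0.18) and progenitor-like cells (0.00832% and 0%, median 0.05), with 0 members at an unadjusted p under 0.05 by edgeR or DESeq2 in any class. The fit with the stage as a covariate leaves 1 residual degree of freedom. Scaling by total UMIs turned the median in progenitor-like cells to -0.01.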

How the data were processed

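The authors deposited UMI counts per gene and cell for 5 droplet libraries, aligned with Cell Ranger (3.1.0 for D0 and 5.0.0 for grafts per the file headers; 3.1 in the submitters' processing notes); whether intronic reads were counted is not given in the sources used here. Graft libraries also had counts against a joint human and mouse reference. The values are raw counts, with no normalization. Cells with over 500 UMIs, over 500 genes, log10 genes divided by log10 UMIs above 0.8, under 15% mitochondrial UMIs and, in grafts, a human share of UMIs over 0.8 were kept. D0 lists 806 and grafts 3869 genes that the other annotation lacks, and these were left out. Doublets were not called.

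Cells were clustered in Seurat 5.3.0 (sctransform 0.4.2, 2500 variable genes after removing the members, of which 48 would have been among them, 40 principal components, resolution 0.8, R 4.3.3). Clusters were named from marker lists by a rule set after the clusters had been seen. Counts summed per library, or per library and class, were tested in edgeR 4.0.16 (TMM scaling, quasi-likelihood test, Benjamini-Hochberg adjustment over all genes, threshold 0.05); class by stage fits had the library as a block. The spread came from the HIP and PFC libraries of a stage, and D0 was assumed to vary like them. DESeq2 1.42.0, total-UMI scaling, other filters, other clusterings and leaving out each graft library were alternatives. The fits were run on simulated counts with known changes, drawn independently for each gene with the same dispersion. These counts held no effect of site or library shared between genes, so they cannot show how the p-values behave in the real libraries. Named genes were, per comparison, the 5 members per direction with the largest change among those called, members against the direction of the median, the 5 members per direction with the largest ratio of 1 sign between classes, paralogs, fusion and accessory proteins, the 3 called genes per direction of other lists, and members with a read-through gene; others were named after their values were seen. The members and gene lists were chosen with earlier results of these data known. RPL9P9, POLR1F, POLR1G and POLR1H had no match by symbol. The last 3 were read under their older symbols TWISTNB, CD3EAP and ZNRD1. Some genes are not reported here by name; counts and medians over the members include them. Depth was 12451092 to 57135277 UMIs per library, and intervals cover counting error only.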

Additional observations from a re-analysis of the deposited data

Results flagged for a closer look

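The change from 2MPT to 4MPT differed between cell classes by a test of the difference itself. It was lower in astrocyte-like than in progenitor-like cells for 68 of 77 members and lower than in neuron-like cells for 14 (edgeR). Both counts were 0 once cluster 7 was added to the astrocyte-like class. The first fell far without either 2MPT library, and the second without any one graft library, in fits that leave 1 library in a stage. By DESeq2 the second was 0, where 46 of 15996 genes were lower. In astrocyte-like cells the share of UMIs from MALAT1, a nuclear RNA, was 4.23 and 4.85% in HIP and PFC at 2MPT and 5.79 and 3.02% at 4MPT, and the median depth was 1219, 2624, 4288 and 2850 UMIs per cell. The part of these in the difference was not tested.

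Mouse ribosomal protein genes gave a signal that the comparisons did not use. Cells kept as human held 1.07 to 6.54% mouse UMIs in the joint reference. Of those mouse UMIs, mouse members gave 10.3 and 9.84% in HIP and PFC at 2MPT and 8.62 and 6.09% at 4MPT. D0 has no such counts here, so there is no control level.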

How the results depend on the processing

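Scaling by total UMIs gave 4 members higher against D0 at each stage, with medians of -0.62 and -0.366. In progenitor-like cells the median was 0.188 from 2MPT to 4MPT and -0.0107 (reversed) from HIP to PFC. The stage change was lower in astrocyte-like than in progenitor-like cells for 44 members (142 of 12724 genes). Against neuron-like cells it was lower for 38 members (241 of 15996 genes). Leaving out 1 graft library gave medians against D0 of -1.01 to -0.912 at 2MPT and -0.755 to -0.582 at 4MPT. The numbers of members called lower and higher against D0 moved. From 2MPT to 4MPT the medians then were 0.128 to 0.31 in all cells and 0.0275 to 0.331 in neuron-like cells. They were 0.33 to 0.372 in progenitor-like cells and -0.528 to -0.28 in astrocyte-like cells. The difference of astrocyte-like cells then had 2 to 75 members lower against progenitor-like and 0 to 2 against neuron-like cells. PFC against HIP could not be fitted with a library left out. Without members that overlap a gene listed for D0 alone 1 and 0 were higher. Stricter filters on human share, mitochondrial share or UMIs each gave 1 higher at 4MPT (5246 of 18681, 5273 of 18620 and 5268 of 18777 genes). Neuron-like cells alone gave 27 and 21 lower with medians of -0.565 and -0.313, and progenitor-like cells a median of -0.611 at 4MPT. With cluster 7 added, the astrocyte-like median was 0.408 and its differences 0.0409 and 0.282, with 0 called. The difference from neuron-like cells had 0 members lower with DESeq2 (46 of 15996 genes) and 3 at resolution 1.6 (284 of 16339 genes). It had 3 with members kept among the variable genes (195 of 15989 genes). In cells of 2000 to 4000 UMIs it had 4 (11 of 11664 genes), and 1 against progenitor-like cells (9 of 10313 genes). With the larger astrocyte-like cluster alone it had 33 (277 of 16075 genes). In progenitor-like cells the median from 2MPT to 4MPT was 0.357 with no filter and 0.241 with members kept, and that from HIP to PFC 0.0975 with no filter, 0.0714 at resolution 1.6 and 0.0705 with members kept. Without mitochondrial UMIs the share was 26.6% in D0 and 19.8% at 4MPT, 30.5, 19.3 and 22.6% in progenitor-like cells of D0, 2MPT and 4MPT, and 29.3% in astrocyte-like cells of D0. The median over cells was 24.2% in D0 and 17.7% at 4MPT, and 29.8% and 21.1% in progenitor-like cells. Cells of 2000 to 4000 UMIs gave 21.2% in D0 and 19.7% at 4MPT, 25.2% and 23.1% in progenitor-like cells, and 18.3% in neuron-like cells of D0. With members kept, progenitor-like cells of 4MPT had 20.5% and astrocyte-like cells of D0 25.7%. The causes were not tested. The replicate numbers do not pair the samples. With the graft site as a replicate block 0 members were called from 2MPT to 4MPT and the median was 0.222.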
